A study of Mus musculus with 20 samples.

Results

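The cytokines of the interleukin-6 (IL-6) family and the receptor chains that carry their signal through gp130 were described in dorsal root ganglia (DRG), which lie along the spinal nerves and hold the cell bodies of sensory neurons with their glia. The members were 4 ligands (Il6, Lif, Cntf and Clcf1) and 5 receptor chains (Il6ra, Cntfr, Lifr, Osmr and Il6st), taken by symbol after the gene identifiers of the exonic count table had been matched to mouse symbols. All 9 of these genes, of 78258 in the table, were found, and all 9 passed the filter on low counts that left 28564 genes for testing. RNA came from ganglia of lumbar levels 4 to 6 of 10 male mice, all taken 1 day after transection of the sciatic nerve, with 1 library from the uninjured (contralateral) side and 1 from the lesioned (ipsilateral) side of each mouse. The control mice (H62, H63, H65, H96 and H97) were Ahr f/f or f/+, and the conditional knockout mice (Ahr cKO; H61, H64, H95, H99 and H100) were Ahr fl/fl with Thy1CRE-ERT2/EYFP, a Cre recombinase that tamoxifen activates in cells in which the Thy1 promoter drives it. Both genotypes had received tamoxifen at 100 mg/kg by intraperitoneal injection on 5 days at 17 weeks of age, 4 weeks before the lesion, so the contralateral ganglia of tamoxifen-treated, injured mice were the reference and no uninjured or vehicle-treated mouse was compared. This made 4 groups of 5 libraries, with 76.2 to 118.5 M counts per library (M, mega).

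Each ligand of the family assembles a receptor complex that contains gp130, the product of Il6st. IL-6 first binds its own receptor Il6ra, ciliary neurotrophic factor (Cntf) and cardiotrophin-like cytokine (Clcf1) bind Cntfr, and leukemia inhibitory factor (Lif) binds Lifr directly, while oncostatin M signals through Osmr or Lifr paired with gp130. The assembled chains activate JAK kinases and the transcription factor STAT3, and STAT3 induces Socs3, which switches the receptor off. In peripheral nerve the family is known for its part in the response of sensory neurons and glia to axon injury. Ahr encodes the aryl hydrocarbon receptor, a transcription factor activated by small ligands.

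As a check of the tissue, markers of sensory neurons summed to 7961 to 9361 CPM and those of Schwann cells to 3319 to 4809 CPM over the 20 libraries (CPM, counts per M counts of a library after TMM scaling). Ahr itself, counted over the whole gene in all cells, averaged 24.2 CPM in the contralateral libraries of control mice and 20.4 CPM in those of cKO mice, and 34.4 and 31.9 CPM on the ipsilateral side. The targeted transcript was thus still counted in every cKO library, and excision of the floxed part was not analysed here. The contralateral cKO libraries differed among themselves: markers of fibroblasts summed to 1694, 1405 and 1222 CPM in H64, H95 and H100, against 774.0 in H61, 697.9 in H99 and 621.6 to 964.0 in the 5 control libraries. The H100 contralateral library also held 1216 CPM of muscle markers, against 3.28 to 244.7 CPM in the other 9 contralateral libraries.

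The sequences before the start sites of 3 of the ligand genes are shown because the ligands differed most in their response. They are the 250 bases before the start in RefSeq (GRCm38.p6), 5′ to 3′ on the strand of the gene, with every match to a searched motif in capitals. The motifs, read on both strands, were AP-1 (TGANTCA), CRE (TGACGTCA), C/EBP (TTGNNCAA), STAT (TTCNNNGAA), NF-kB (GGG, then 2 free bases, then TTTCC) and the core of the AhR element (GCGTG).
Il6 (chr5:30012864-30013113, plus strand): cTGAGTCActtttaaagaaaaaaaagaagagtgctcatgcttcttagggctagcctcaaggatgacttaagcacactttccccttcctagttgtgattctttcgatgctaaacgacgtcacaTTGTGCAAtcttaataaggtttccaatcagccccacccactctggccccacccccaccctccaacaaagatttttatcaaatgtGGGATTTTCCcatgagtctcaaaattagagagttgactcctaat
Lif (chr11:4257318-4257567, plus strand): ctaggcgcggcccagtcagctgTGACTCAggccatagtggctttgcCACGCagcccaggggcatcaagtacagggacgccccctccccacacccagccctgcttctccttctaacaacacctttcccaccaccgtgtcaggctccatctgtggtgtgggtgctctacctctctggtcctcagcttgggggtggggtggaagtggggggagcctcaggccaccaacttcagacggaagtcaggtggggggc
Cntf (chr19:12765633-12765882, minus strand): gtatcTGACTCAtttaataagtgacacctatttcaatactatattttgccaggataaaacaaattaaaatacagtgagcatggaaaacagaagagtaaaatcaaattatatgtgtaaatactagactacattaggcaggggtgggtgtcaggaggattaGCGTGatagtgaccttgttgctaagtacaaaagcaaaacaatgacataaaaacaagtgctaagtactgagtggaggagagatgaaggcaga
In the Il6 sequence the capitals mark, from left to right, an AP-1, a C/EBP and an NF-kB match. In the Lif and Cntf sequences they mark an AP-1 match and then an AhR core.

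Windows from 250 bases before to 50 bases after the start were held in the same table for 8 of the 9 members. Over the 32817 windows of the table, 7.81% held the AP-1 letters, 6.4% the C/EBP letters, 1.63% the NF-kB letters, 8.29% the STAT letters, 1.79% the CRE letters and 32.4% the AhR core. Among the receptor chains the AP-1 letters occurred only in Osmr, at bases 4 to 10 after the start. The Il6st window held none of the 6 motifs, and no member window held the STAT or the CRE letters. The AhR core was found in the 1 window of Lif, Cntf, Il6ra and Osmr, in 1 of 2 windows of Lifr and in 3 of 6 of Cntfr. Clcf1 had no window, so its motifs were not searched. A match here is a run of letters and not a measured binding site.

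The first question was at what level the members were present. Set against each other per kilobase of merged exons (CPM per kb), the levels in control contralateral ganglia spanned from gp130 at the top to IL-6 at the bottom. Il6st averaged 52.5 ± 2.98 CPM per kb (SD, n = 5), Lifr 39.3 ± 2.29, Cntfr 26.9 ± 0.646, Cntf 21.2 ± 3.06 and Osmr 5.67 ± 0.498. Il6ra followed at 0.634 ± 0.114, Clcf1 at 0.143 ± 0.0633, Lif at 0.128 ± 0.0323 and Il6 at 0.0892 ± 0.0288. Neighbours in this order did not overlap between libraries, except that Clcf1 overlapped Lif and Lif overlapped Il6. The ganglia thus held the signalling chains gp130 and LIFR at far higher transcript levels than the IL-6-binding chain. Cntf was the one ligand at a level near that of its receptor chain Cntfr and above Osmr and Il6ra. Its place is uncertain, since 78.9% of its exon bases are shared with Zfp91 on the same strand. The same order of the 9 genes was found in cKO contralateral ganglia, where Cntfr and Cntf also overlapped. On the ipsilateral side Il6 stood in sixth place in both genotypes, at 0.917 ± 0.107 CPM per kb in control and 1.03 ± 0.115 in cKO libraries. There it overlapped Il6ra in control libraries (0.742 ± 0.167) and lay above all 5 values of Il6ra in cKO libraries (0.728 ± 0.106).

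**Figure D1:**
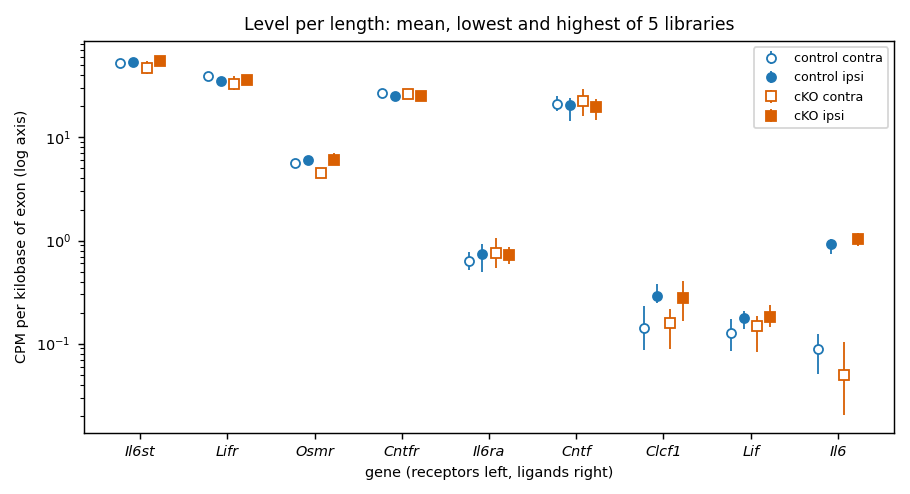
Level of each member per kilobase of merged exons (CPM per kb, log axis) in the 4 groups; the symbol is the mean and the line runs from the lowest to the highest of 5 libraries. The control ipsilateral means of Il6st, Lifr, Cntfr and Cntf lie between 20.8 and 54.1 CPM per kb, with libraries from 14.5 to 58.3, and Il6 is the gene whose ipsilateral and contralateral symbols lie far apart.

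The response to transection was then compared between sides in each genotype. In control mice 2 of the 9 members were higher on the ipsilateral side and none was lower at an adjusted p under 0.05, while of all tested genes 13.8% passed upward and 16.0% downward. In cKO mice 4 of 9 were higher and none was lower, against 16.2% and 15.1% of all genes. The genes called in both genotypes were the ligands Il6 and Clcf1. Osmr and Il6st were called in cKO mice only, and whether their responses differed between the genotypes was tested separately. The median log2 fold change of the 9 members was 0.10 in control and 0.23 in cKO mice, against -0.0047 and -0.03 over all genes.

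**Figure D2:**
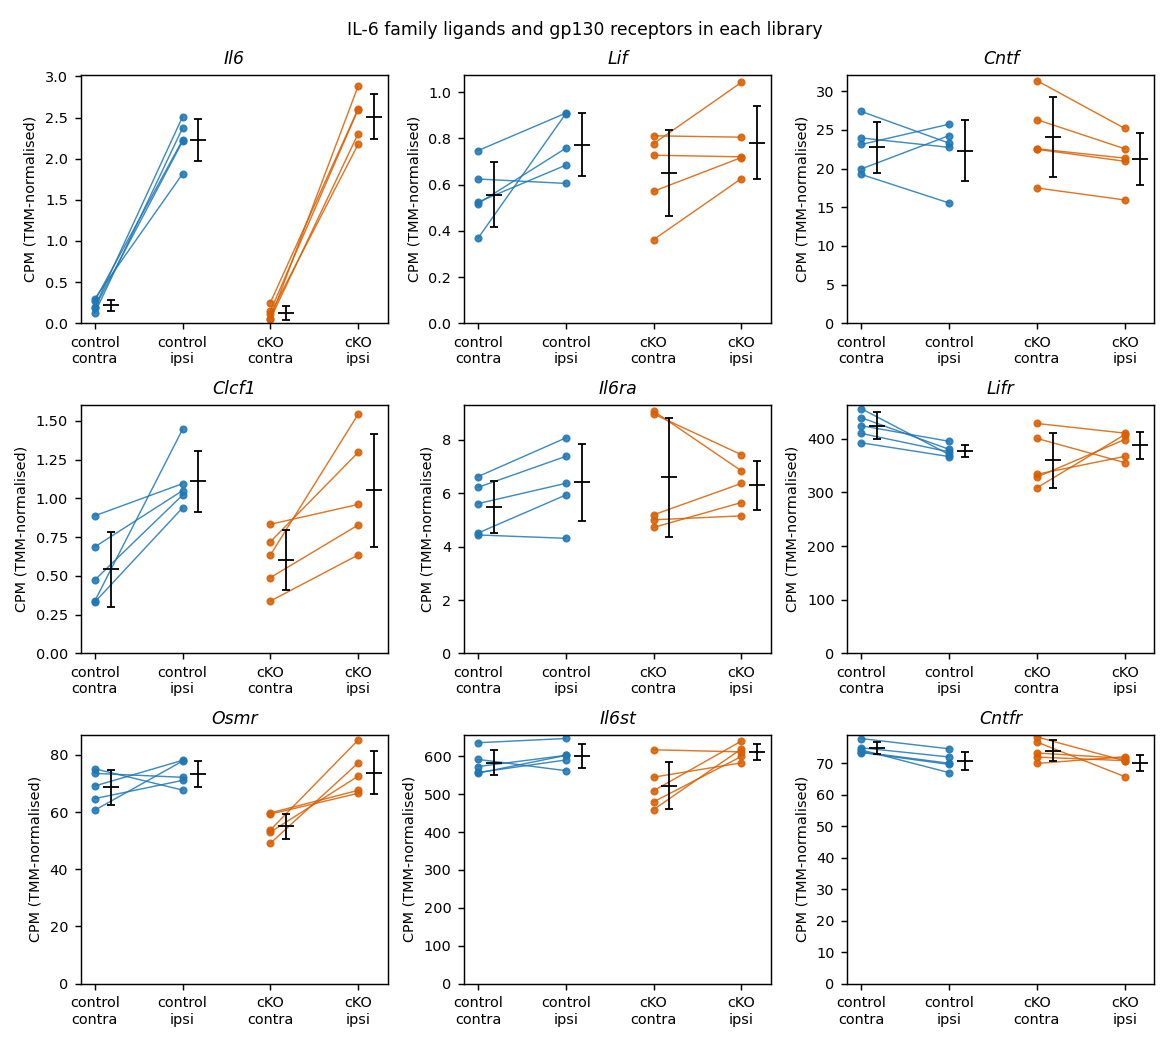
CPM of each of the 9 members in every library; a line joins the contralateral and ipsilateral libraries of 1 mouse (blue control, orange cKO), and the black mark beside each group is the mean ± SD of 5 libraries. All 10 Il6 lines rise, from at most 0.298 CPM to at least 1.81 CPM, and the cKO contralateral points of Osmr lie below the control ones.

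IL-6, the founding cytokine of the family, was higher on the lesioned side in each of the 10 mice, as were 18.3% of all genes in the 5 control mice and 17.9% in the 5 cKO mice. In control contralateral libraries Il6 had 0.190, 0.196, 0.298, 0.274 and 0.125 CPM (H62, H63, H65, H96 and H97), and in the ipsilateral libraries of the same mice 2.21, 2.51, 1.81, 2.23 and 2.37 CPM. In cKO mice it had 0.250, 0.051, 0.111, 0.145 and 0.050 CPM on the contralateral side (H61, H64, H95, H99 and H100) and 2.60, 2.88, 2.17, 2.60 and 2.30 CPM on the ipsilateral side. The 2 sides did not overlap in either genotype, a pattern found in 11.3% of all genes for control mice and 11.9% for cKO mice. Behind these values stood 4 to 33 counts per contralateral and 152 to 340 counts per ipsilateral library, so the contralateral level, and with it the size of the fold change, carried a large counting error. The ratio of the sides ran from 6.09 to 19.0 over the control mice (median 11.6) and from 10.4 to 56.8 over the cKO mice (median 19.6). The highest ratios, in H64 and H100, belonged to the 2 libraries with 4 counts of Il6 on the contralateral side. In the edgeR fit the log2 fold change was 3.33 (SE 0.249, adjusted p 1.991e-09) in control and 4.34 (SE 0.272, adjusted p 1.076e-10) in cKO mice, corresponding to 10.1-fold and 20.2-fold. In bulk ganglia a change in the number of cells of a type and a change in RNA per cell cannot be told apart. None of the 7 macrophage markers or the 5 neutrophil markers was called between the sides in either genotype. Their sums ran from 53.6 to 134.1 CPM and from 17.2 to 143.9 CPM over the libraries. In control mice all 7 macrophage markers (median log2 fold change 0.41) and all 5 neutrophil markers (0.64) had estimates above 0, and in cKO mice 5 of 7 (0.20) and 2 of 5 (-0.10). Their part in the level of Il6 was not tested.

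Clcf1, whose product acts through Cntfr, also rose, from a low level. Control contralateral libraries had 0.687, 0.331, 0.338, 0.888 and 0.474 CPM and control ipsilateral libraries 1.05, 0.939, 1.45, 1.10 and 1.02 CPM. The sides did not overlap, with the lesioned side higher, as for 11.3% of all genes. In cKO mice the contralateral libraries had 0.489, 0.634, 0.833, 0.338 and 0.720 CPM and the ipsilateral ones 0.828, 1.54, 0.961, 0.635 and 1.30 CPM, and here the sides overlapped, although each of the 5 mice was higher on its own lesioned side. The log2 fold change was 1.01 (SE 0.285, edgeR adjusted p 0.00984) in control and 0.80 (SE 0.284, adjusted p 0.0366) in cKO mice. The control call was lost without H65 (0.78, adjusted p 0.0723), whose ratio of 4.27 was the highest of the 5. The cKO call was lost without H61, H64, H97 or H100 (0.64 to 0.81, adjusted p 0.0522 to 0.159). In GENCODE M21, 8.17% of the Clcf1 exon bases are shared with a gene on the same strand, AC109138.7, so a part of its counts is uncertain.

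Lif, which signals through LIFR and gp130 and is known as an early injury factor of peripheral nerve, did not pass the test. It averaged 0.556 ± 0.141 CPM in control contralateral and 0.772 ± 0.135 CPM in control ipsilateral libraries (SD, n = 5), higher in 4 of 5 mice, with a log2 fold change of 0.47 (SE 0.210, edgeR adjusted p 0.102). In cKO mice the means were 0.650 ± 0.185 and 0.782 ± 0.158 CPM, higher in 3 of 5 mice (0.27, adjusted p 0.360). With 30 to 116 counts per library, the 95% interval of the control response ran from 0.06 to 0.88 on the log2 scale, and that of the cKO response from -0.14 to 0.67.

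Cntf, a ligand without a secretion signal that is known from myelinating Schwann cells, was the most abundant ligand. It lay between 15.5 and 27.4 CPM in the control libraries and between 15.9 and 31.4 CPM in the cKO libraries, with a log2 fold change of -0.03 (SE 0.158) in control and -0.18 (SE 0.158) in cKO mice, neither past the threshold (edgeR adjusted p 0.931 and 0.427). All 5 cKO mice had less Cntf on the lesioned side, with ratios from 0.803 to 0.947, while 17.5% of all genes were lower in all 5 cKO mice. None of the 7 Schwann cell markers was called between the sides in either genotype. In GENCODE M21, 847 of the 1073 exon bases of Cntf (78.9%) are shared with Zfp91 on the same strand, so how the authors' counting divided reads between these genes sets the Cntf level, and its values are uncertain.

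Of the receptor chains that bind ligand without signalling, neither Il6ra nor Cntfr passed the test. Il6ra had 4.43 to 6.62 CPM in control contralateral and 4.31 to 8.07 CPM in control ipsilateral libraries (log2 fold change 0.23, SE 0.204, edgeR adjusted p 0.455). In cKO contralateral libraries 2 mice stood high, H64 at 8.96 and H95 at 9.07 CPM, against 4.72 to 5.19 CPM in the other 3, and the response of the cKO mice was -0.07 (SE 0.203, adjusted p 0.848). Those 2 libraries also held the highest sums of fibroblast markers, and the part of those cells in Il6ra was not tested beyond a fit with the marker sum as a covariate, in which the response turned to 0.21 (adjusted p 0.376). Cntfr was the steadiest member, at 65.8 to 78.5 CPM over all 20 libraries. It was lower on the lesioned side in 5 of 5 control and 4 of 5 cKO mice, by 0.08 on the log2 scale in each genotype (SE 0.0349, edgeR adjusted p 0.0837 and 0.102), which missed the threshold. Limma on log2 FPKM called it lower in both genotypes (adjusted p 0.0242 to 0.0336), as did leaving out H61 in cKO mice (-0.11, adjusted p 0.0421). In control mice 20.2% of all genes were lower on the lesioned side in all 5 mice.

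The estimated responses of the 3 signalling chains were higher in cKO than in control mice. Osmr, the signal chain for oncostatin M and, with Il31ra, for interleukin-31, had 60.7, 69.1, 64.7, 73.5 and 75.1 CPM in control contralateral and 77.8, 78.1, 71.1, 72.2 and 67.7 CPM in control ipsilateral libraries. In cKO mice it had 59.3, 53.8, 53.0, 59.7 and 49.1 CPM on the contralateral side and 66.6, 85.2, 72.6, 67.6 and 77.2 CPM on the ipsilateral side. Control sides overlapped, with 3 of 5 mice higher on the lesioned side, while the cKO sides did not overlap. The log2 fold change was 0.10 (SE 0.0720, edgeR adjusted p 0.360) in control and 0.43 (SE 0.0722, adjusted p 1.18e-04) in cKO mice, and the cKO call held with each mouse left out in turn (0.36 to 0.49). The ratio of the sides was 1.58 in H64, 1.57 in H100 and 1.37 in H95, whose contralateral libraries held 1222 to 1694 CPM of fibroblast markers, and 1.12 in H61 and 1.13 in H99, with 774.0 and 697.9 CPM. In a fit with the fibroblast marker sum as a covariate, added after the data had been seen, the cKO response of Osmr was 0.40 (SE 0.0765, adjusted p 5.08e-04).

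Il6st, the gp130 chain common to the family, was the most abundant member. In control mice it had 635.5, 572.7, 557.1, 555.4 and 591.6 CPM on the contralateral side and 646.7, 602.2, 590.0, 602.1 and 561.8 CPM on the ipsilateral side. In cKO mice the contralateral values were 544.7, 459.2, 479.6, 616.9 and 508.9 CPM and the ipsilateral values 582.4, 619.2, 599.2, 611.4 and 639.9 CPM. The contralateral library of H99 lay within the ipsilateral range, and the other 4 cKO mice were higher on the lesioned side. The log2 fold change was 0.04 (SE 0.0614, edgeR adjusted p 0.655) in control and 0.23 (SE 0.0614, adjusted p 0.00719) in cKO mice, and the cKO call held with each mouse left out (0.18 to 0.30). The ratio of the sides was 1.35, 1.25 and 1.26 in H64, H95 and H100, the 3 mice with the high contralateral sums of fibroblast markers, and 1.07 and 0.991 in H61 and H99. The median log2 fold change of the 6 fibroblast markers was -0.49 in cKO mice, with 1 called lower, and 0.32 in control mice. With their sum as a covariate, the Il6st response was 0.19 (SE 0.0611, adjusted p 0.0191).

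Lifr, the chain that pairs with gp130 for LIF, CNTF and CLCF1, had estimates of opposite sign in the genotypes. It was lower on the lesioned side in all 5 control mice, as were 20.2% of all genes. In control mice it went from 423.8, 409.5, 438.7, 392.0 and 455.5 CPM to 394.8, 375.2, 379.9, 366.4 and 370.2 CPM. In cKO mice it went from 400.2, 308.2, 328.2, 428.0 and 333.4 CPM on the contralateral side to 355.2, 407.2, 398.1, 410.1 and 366.7 CPM on the ipsilateral side, lower in H61 and H99 and higher in H64, H95 and H100. Neither response passed the threshold: the log2 fold change was -0.17 (SE 0.0716, edgeR adjusted p 0.0861) in control and 0.11 (SE 0.0716, adjusted p 0.278) in cKO mice. A fit of the control libraries alone called the control response (-0.15, adjusted p 0.00954), as did leaving out H99 (-0.16, adjusted p 0.0443). With the fibroblast marker sum as a covariate, the Lifr response was -0.10 (SE 0.056, adjusted p 0.213) in control mice and 0.04 (SE 0.0565, adjusted p 0.679) in cKO mice. The 3 cKO mice in which Lifr was higher on the lesioned side are those with the high contralateral sums of these markers.

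The genotypes were compared on the contralateral side first. None of the 9 members was called in the edgeR fit, where 0.0735% of all genes were called (21 genes, 14 of them lower in cKO). At an unadjusted p under 0.05, 4 members (Il6, Lifr, Osmr and Il6st) were lower in cKO, while 17.5% of all genes passed that level. Osmr averaged 68.6 ± 6.04 CPM in control mice against 55.0 ± 4.51 CPM in cKO mice (SD, n = 5), and its highest cKO value lay under its lowest control value, as it did for 1.07% of all genes. Its log2 fold change was -0.32 (SE 0.0723, adjusted p 0.0769). Lifr had 423.9 ± 24.7 CPM in control mice and 359.6 ± 51.6 CPM in cKO mice (-0.24, adjusted p 0.121), Il6st 582.5 ± 33.1 and 521.8 ± 62.1 CPM (-0.16, adjusted p 0.193), and Il6 0.217 ± 0.0699 and 0.121 ± 0.0827 CPM (-0.84, adjusted p 0.177). For Lif, Cntf, Clcf1, Il6ra and Cntfr the adjusted p was 0.531 to 0.878.

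Within the cKO contralateral group the low values belonged to the same libraries. Lifr was at 308.2, 328.2 and 333.4 CPM and Il6st at 459.2, 479.6 and 508.9 CPM in H64, H95 and H100, the 3 libraries with 1222 to 1694 CPM of fibroblast markers, and H61 and H99 were within or near the control range. Il6 was at 0.051, 0.111 and 0.050 CPM in the same 3 libraries and at 0.250 and 0.145 CPM in H61 and H99. Between the genotypes, all 6 fibroblast (median log2 fold change 0.887), 7 macrophage (0.23) and 5 neutrophil markers (0.788) were above 0 on this side. All 5 endothelial (0.123), 3 muscle (1.6) and 3 erythroid markers (0.416) were above 0 too. The number above 0 was 5 of 7 for Schwann cell, 3 of 5 for satellite glia, 2 of 10 for sensory neuron and 0 of 4 for T cell markers. None of these markers was called, and the part of cells other than fibroblasts was not tested. In the fit with the fibroblast marker sum as a covariate, Osmr was at -0.27 (adjusted p 0.810) and Lifr at -0.11 (0.890). Il6st was at -0.10 (0.910) and Il6 at -0.55 (0.894). The edgeR unadjusted p of that fit was 0.00615 for Osmr, 0.101 for Lifr, 0.151 for Il6st and 0.108 for Il6. Only 2 of all genes were called in it. Leaving out each mouse moved Il6 between -1.28 (without H61) and -0.65 (without H100), with adjusted p from 0.0513 to 0.411. DESeq2 called 2 of the members on this side, Osmr (-0.31, adjusted p 0.00408) and Lifr (-0.23, adjusted p 0.0386). Leaving out H61 left Osmr called (-0.35, adjusted p 0.0449), and leaving out H99 left Osmr, Lifr and Il6st called (-0.35, -0.31 and -0.22, adjusted p 0.00937, 0.00709 and 0.0115).

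On the ipsilateral side the means of the genotypes lay closer together. None of the 9 members was called by edgeR, DESeq2 or limma-voom, where 0.007% of all genes were called by edgeR. None reached an unadjusted p under 0.05 with edgeR either, as 2.36% of all genes did. Osmr had 73.4 ± 4.50 CPM in control libraries against 73.8 ± 7.63 CPM in cKO libraries (log2 fold change 0.01, 95% interval -0.13 to 0.15). Il6st had 600.6 ± 30.6 and 610.4 ± 21.6 CPM (0.02, -0.10 to 0.14) and Lifr 377.3 ± 11.0 and 387.5 ± 24.9 CPM (0.04, -0.10 to 0.18). For Il6 the difference was 0.17, with an interval from -0.23 to 0.58. The intervals of the abundant chains thus covered differences of up to about 0.18 on the log2 scale, and that of Clcf1, from -0.61 to 0.46, was far wider.

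The difference between the genotypes' responses was tested as an interaction, which uses the same contralateral libraries as the comparison above. None of the members was called by edgeR, DESeq2 or limma-voom, and 0.0% of all genes were called by edgeR. At an unadjusted p under 0.05, 4 members had a larger response in cKO mice: Il6 (1.01, SE 0.373), Osmr (0.33, SE 0.102), Lifr (0.28, SE 0.101) and Il6st (0.18, SE 0.0868), with adjusted p of 0.485 for the first 3 and 0.510 for Il6st. At that level 9.8% of all genes passed. The fibroblast markers, 6 of 6 with an interaction estimate below 0 (median -0.80), moved with these differences. The estimate was also below 0 for all 7 Schwann cell (median -0.09), 7 macrophage (-0.32), 5 neutrophil (-0.71) and 5 endothelial markers (-0.25). All 3 muscle (-4.24) and 3 erythroid markers (-0.44) were below 0 too. Estimates were above 0 for 5 of 10 sensory neuron, 1 of 5 satellite glia and 3 of 4 T cell markers. Only the fibroblast sum was used as a covariate. With it the interaction was 0.68 for Il6 (edgeR unadjusted p 0.0886), 0.14 for Lifr (0.120) and 0.12 for Il6st (0.198). For Osmr it was 0.27 (0.0270), the one of the 4 still under 0.05. The calls of Osmr and Il6st in cKO mice alone are therefore not shown to be particular to that genotype.

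**Figure D3:**
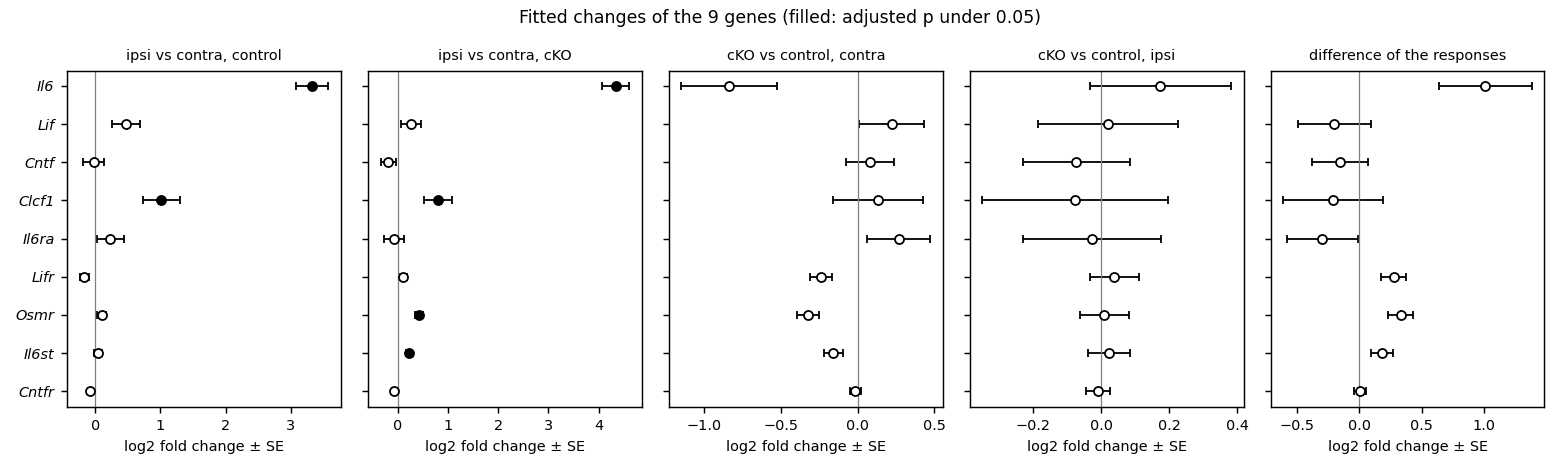
Fitted log2 fold change of each member with its standard error in the 5 comparisons (each panel has its own axis); filled circles have an adjusted p under 0.05. Il6 and Clcf1 are filled in both responses, Osmr and Il6st only in the cKO response, and no circle is filled in the 3 panels that compare the genotypes.

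Other ligands and receptors listed with the gp130 family were tested in the same fit. The list includes Il31 and Il31ra, although the interleukin-31 receptor pairs Il31ra with Osmr and not with gp130. Il27 and Il31 had too few counts. Il31ra was called in cKO mice (0.64, SE 0.111, adjusted p 1.967e-04), where its contralateral libraries had 32.5, 29.3, 29.6, 35.6 and 21.1 CPM and its ipsilateral libraries 44.8, 51.3, 46.1, 39.9 and 48.2 CPM. Its 3 lowest contralateral values were those of H64, H95 and H100, the libraries with 1222 to 1694 CPM of fibroblast markers, and the lowest was that of H100, which also held the 1216 CPM of muscle markers. The part of these cells in Il31ra was not tested. In control mice the response of Il31ra was 0.15 (adjusted p 0.344), and its interaction passed no threshold after adjustment. The oncostatin gene Osm, at 2 to 20 counts per library, and the ligands Il11, Ctf1, Ctf2 and Ebi3 were not called, nor were the receptors Il11ra1 and Il27ra.

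Of 19 genes of gp130 signalling (kinases, STAT factors, adaptors, SOCS proteins and the shedding proteases), 9 were called higher and 2 lower in control mice, with a median log2 fold change of 0.22, and 9 higher and 1 lower in cKO mice, with a median of 0.19. Of all tested genes, 13.8% were higher and 16.0% lower in control mice (median -0.0047), and 16.2% and 15.1% in cKO mice (median -0.03). The largest rises were those of feedback inhibitors. Socs3, which blocks gp130, went from 9.94 to 31.4 CPM in control mice (1.66, SE 0.166) and from 8.62 to 31.1 CPM in cKO mice (1.85, SE 0.168). Cish (1.29 and 1.38) and Socs2 (0.52 and 0.70), of the same inhibitor family, and the kinase gene Jak2 (0.48 and 0.55) also rose in control and cKO mice. Stat3 rose from 413.2 to 501.0 CPM in control mice (0.28) and from 371.2 to 509.8 CPM in cKO mice (0.46), while Jak1 was not called (-0.0056 and 0.09). The genes called lower were Tyk2, a further JAK kinase (-0.23 in control mice), and Ptpn11, the phosphatase SHP2 (-0.06 and -0.07).

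Of 20 genes known as STAT3 targets or as induced by gp130 cytokines, 19 were tested, and 14 were called higher in control and 15 in cKO mice, with none lower and medians of 0.96 and 1.04, where 13.8% and 16.2% of all tested genes were higher. Several of these genes have other inducers after axotomy, so their counts describe the injury response and are not a readout of gp130. Atf3, a stress transcription factor of axotomized neurons, had the largest rise with Sprr1a, which is linked to axon outgrowth: Atf3 went from 11.3 to 426.5 CPM in control mice (5.23, SE 0.0973) and from 9.24 to 416.9 CPM in cKO mice (5.50, SE 0.0991), and Sprr1a by 5.32 and 5.35. Timp1, a secreted protease inhibitor, rose by 2.58 and 1.73 and Gfap, a glial filament, by 2.38 and 2.22. The genes of this list that were called in neither genotype were Icam1, Lcn2, Vip and Fgl2. None of the 3 lists had a gene called between the genotypes on either side or in the interaction.

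**Figure D4:**
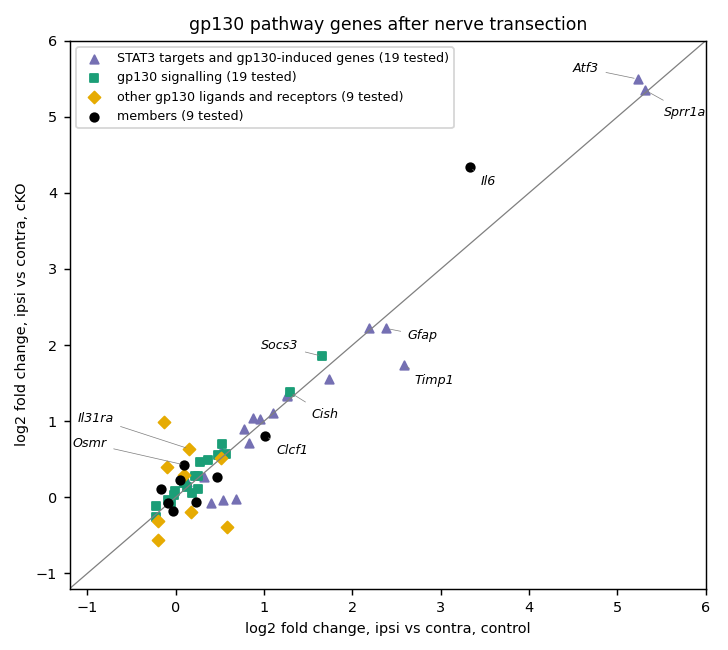
Log2 fold change after transection in control (x axis) against cKO mice (y axis) for the tested members and the 3 further gene lists, with the line of equal response. The 2 axes use different libraries; Atf3 and Sprr1a lie highest, Il6 follows at 3.33 and 4.34, and most receptor chains lie near 0.

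The genes whose log2 CPM ran most like that of each member were listed for the 7 members with a mean of at least 1 CPM, by Pearson's r over the 20 libraries among 14198 genes with a symbol. These points share mice, sides and library composition, so r is a description, and the value within groups, after the group means were removed, is given beside it. Il6 ran most like Sbno2 (r 0.985, within groups 0.654) and Slc10a6 (0.983 and 0.635). Osmr ran most like Il31ra (0.948 and 0.818), Lifr like Adam22 (0.957 and 0.945) and Il6st like Raph1 (0.942 and 0.889). Cntf ran most like Drp2, one of the Schwann cell markers (0.883 and 0.879), Il6ra like Pxn (0.884 and 0.880) and Cntfr like Pdzd2 (0.831 and 0.699). Among the members themselves the closest pair within groups was Lifr and Il6st (0.655 over all libraries and 0.759 within groups), followed by Cntf and Il6ra (0.644 and 0.705). In the RefSeq gene order of GRCm38.p6, Osmr and Lifr are neighbours on chromosome 15, and Il6st and Il31ra are neighbours on chromosome 13.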

How the data were processed

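The authors deposited whole-number exonic counts per gene and an FPKM table for the 20 libraries. Per the labels' protocols, the libraries were stranded mRNA libraries read as pairs of 150 bp. HISAT2 and Picard and the builds mm10 and mm39 are named in the submitters' processing notes without a role; the counting program, annotation and strand setting are not given in the sources used here. The FPKM values deposited by the authors equalled the CPM divided by 1 length per gene, in 21541 of 21541 genes with at least 1000 counts (within 0.1%). For 93.0% of 18805 genes the length came within 5% of the gene's full span with its introns, so FPKM served only within genes as an alternative, and levels between genes used CPM per kilobase of merged exons from GENCODE M21. Libraries were assigned by their library names: 1 title gives a shortened mouse number, and 1 label field names a spinal cord injury where the protocol describes sciatic nerve transection, which was followed. Symbols came from GENCODE M21 (51487 of 78258 identifiers, 98.1% of counts).

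Counts were fitted with edgeR 4.0.16 in R 4.3.3 (TMM, filterByExpr with minimum count 10 and minimum total 15, robust quasi-likelihood tests), with all 20 libraries and 4 group means in 1 model. Adjusted p is Benjamini-Hochberg over the 28564 tested genes of each of 5 comparisons, and called means an adjusted p under 0.05; intervals are 95%. The SE is the log2 fold change over the root of F. The members had 4 (Il6) to 73098 (Il6st) counts per library, and no molecular identifiers were used. The code was tested on simulated counts.

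Both libraries of a mouse come from the same animal and are paired by design. Their deviations from the group means correlated with a median of 0.308 over the 10 mice (-0.16 to 0.668, above 0.1 in 8), and mouse as a block was an alternative. Others were DESeq2 1.42.0, limma-voom (limma 3.58.1), RLE size factors, no filter, a mean of at least 1 CPM, limma on log2 of the FPKM (pseudocounts 1 and 0.1), a term for the range of mouse numbers, fits of only the groups compared, each mouse left out, and, added after the data had been seen, the fibroblast marker sum as a covariate. The members, gene lists and markers were chosen with earlier results of these data known. Named are all 9 members, Ahr, the other gp130 ligands and receptors (1 of which is not reported here), and from each further list the 4 genes with the largest change among those called in both genotypes with 1 sign in all 10 mice; Stat3, Jak1, Tyk2, Ptpn11 and the uncalled genes of the last list were named after their values were seen.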

Additional observations from a re-analysis of the deposited data

Results flagged for a closer look

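The spread of 54 groups of 5 values was checked on the log2 scale (each member in each group of libraries, and its response in each genotype). In 3 of them 1 mouse lay apart from the other 4 by more than Dixon's critical ratio of 0.71. Chance gives about 1 in 20, here 2.7 groups, which is close to the number found. Cntf in control ipsilateral libraries was lowest in H65, at 15.5 CPM against 22.7 to 25.7 CPM (gap over range 0.755 in log2). On the CPM scale this ratio would lie just under 0.71. Cntfr in cKO ipsilateral libraries was lowest in H95, at 65.8 CPM against 70.9 to 72.2 CPM (0.802). The ratio of the sides of Cntfr was lowest in control mouse H65, at 0.903 (0.793). In the edgeR fit of all 20 libraries neither gene was called in any of the 5 comparisons.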

How the results depend on the processing

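With the replicate block (mouse), 2 members were called in control and 4 in cKO mice and none in the interaction, as without it, and 8559 and 9015 genes were called in all; with mouse as a random effect none was called between the genotypes. The number of members called in control mice was 1 with a mean CPM of at least 1, where Lif and Clcf1 were not in the fit, and 4 with either FPKM pseudocount, which added Lifr (-0.14 and -0.18) and Cntfr (-0.06 and -0.09) as lower; leaving out each mouse gave 1 (without H65) to 3 (without H99). In cKO mice leaving out a mouse gave 3 to 4 members, with Cntfr gained as lower (-0.11, adjusted p 0.0421) and Clcf1 lost without H61. Both FPKM fits also called Cntfr lower in cKO mice (-0.066 and -0.096, adjusted p 0.0242 and 0.0287), which made 5 members at pseudocount 0.1. On the contralateral side DESeq2 called 2 members and leaving out a mouse 0 to 3. Against 21 genes called there in all, no filter gave 50, a mean CPM of at least 1 gave 45, FPKM gave 12 and 13, only the libraries compared 2, the fibroblast covariate 2, DESeq2 1041 (667 higher) and leaving out a mouse 4 (without H95) to 3326 (without H99, and 174 without H61); the cause was not tested. For the interaction, DESeq2 called 11 genes in all and leaving out a mouse 0 to 43 (without H99). Genes called higher and lower in cKO mice were 4632 and 4307, with no filter 4537 and 2930.

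The Clcf1 call in cKO mice was also lost with no filter (0.82, adjusted p 0.0743) and at FPKM pseudocount 1 (0.06, 0.0522). Ranked by deposited FPKM, 4 of 9 members kept their place in the order of levels. Signs reversed only in uncalled values. For Cntfr these were 0.0039 and 0.0055 (FPKM) and 0.00019 (only the libraries compared) on the contralateral side, 0.0021 and 0.0032 (FPKM) on the ipsilateral side, and -0.00061 (mean CPM), -0.0017 and -0.0023 (FPKM) in the interaction. With the fibroblast covariate they were 0.21 for Il6ra in cKO mice, -0.069, -0.20 and -0.17 for Cntf, Clcf1 and Il6ra contralaterally, 0.013 for Il6ra ipsilaterally, and 0.020, 0.12 and 0.18 for Cntf, Clcf1 and Il6ra in the interaction.

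Leaving out each mouse, uncalled values crossed 0 within these ranges. In the responses these were Cntf in control (-0.092 to 0.047) and Il6ra in cKO mice (-0.15 to 0.046). On the contralateral side they were Cntf (-0.032 to 0.18) and Cntfr (-0.033 to 0.014). On the ipsilateral side they were Lif (-0.10 to 0.093), Cntf (-0.17 to 0.013), Clcf1 (-0.26 to 0.063), Il6ra (-0.13 to 0.072), Osmr (-0.048 to 0.044) and Cntfr (-0.021 to 0.017). In the interaction they were Clcf1 (-0.48 to 0.027) and Cntfr (-0.024 to 0.027).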
